A study of Mus musculus with 23 samples.

Results

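Notch signalling passes between neighbouring cells. A ligand of the Jagged or Delta-like family on one cell binds a Notch receptor on the next, proteases cut the receptor, and its intracellular part enters the nucleus, where it joins the DNA-binding protein RBPJ and turns on target genes such as those of the Hes and Hey repressors. Macrophages carry several of these receptors and ligands, and lipopolysaccharide (LPS), a component of the bacterial outer membrane that is sensed by Toll-like receptor 4, is known to change the expression of some of them. The 8 genes described here are the receptors Notch1 and Notch2, the ligands Jag1, Dll1 and Dll4, the nuclear effector Rbpj and the target genes Hes1 and Hey1. They were chosen by name, with earlier results of these data known. They were found through the RefSeq accessions of the array probes, which gave 11 probes for the 8 genes, out of 55681 probes and 26014 genes on the array.

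RNA was measured in bone marrow-derived macrophages (BMDM), which are bone marrow cells grown for 9 days with the growth factor M-CSF, of male mice aged 10 to 14 weeks, whose strain is C57BL/6 in the labels and C57BL/6J in the methods. The mice were wild-type (wt), lacked the kinase MK2 (MK2-/-) or lacked MK2 and its relative MK3 (MK2/3-/-). MK2 and MK3 are kinases downstream of p38 that act on RNA-binding proteins and on transcription. BMDM of each genotype were kept in medium alone or were given 100 ng/ml LPS for 120 min, which made 6 groups with 4 one-colour Agilent arrays each, apart from MK2-/- BMDM in medium with 3. The methods describe the replicates of a group as independent experiments.

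In wt BMDM, LPS raised Jag1, Dll1 and Rbpj and lowered Hes1 and Hey1, and the same direction was seen in all 11 cultures for which both arrays exist, knockouts included. After adjustment Jag1, Dll1 and Rbpj were higher and Hes1 was lower in each of the 3 genotypes, whereas the receptor Notch1 passed in none of them. Of the 8 genes, 3 were called higher in wt BMDM, 3 in MK2-/- and 4 in MK2/3-/-, compared with 8.26%, 8.48% and 11.9% of all genes. Lower calls numbered 2, 1 and 2, compared with 8.89%, 10.1% and 12.9% of all genes. In the order wt, MK2-/- and MK2/3-/-, the log2 differences of the 8 genes had medians of 0.93, 1.24 and 1.21, beside medians of 0.0051, -0.0108 and -0.0239 over all genes. As the 8 genes were chosen with earlier results of these data known, these counts and medians are descriptions and no test of the set. None of the 8 genes passed the adjustment between genotypes, in medium, after LPS or in the size of the LPS response.

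Values below are log2 signals after quantile normalization, and differences are log2 differences. Adjusted p-values come from limma over all 26014 genes, with 0.05 as the threshold. The signal of a probe depends on its sequence, so levels of different probes were not compared. The 3 genotypes were hybridized to 3 slides, 1 per genotype, so that genotype and slide cannot be told apart, whereas both treatments of a genotype lay on the same slide. The probes well above background made up 47.5% to 69.1% of all probes per array. The Mapkapk2 signal, which checks the MK2 deletion, was 12.22 ± 0.51 (SD, n = 4) in wt BMDM in medium and was lower in MK2-/- (difference -3.31, adjusted p = 5.75e-06) and MK2/3-/- BMDM (-3.50, adjusted p = 2.98e-07). Mapkapk3 was reduced in MK2/3-/- compared with wt BMDM (-1.62, adjusted p = 5.74e-05) and was 13.74 in MK2-/- compared with 13.50 in wt BMDM. The Mapkapk2 signal rose with LPS in the knockouts too, to 11.96 in MK2-/- and 11.76 in MK2/3-/- BMDM. In wt BMDM it was 14.77 after LPS, and the knockouts stayed lower (differences -2.81 and -3.01, adjusted p = 2.41e-05 and 2.6e-06 by limma). It was well above background on all arrays of the knockouts. Where the probes lie relative to the deleted parts is not given in the sources used here. All 5 measured macrophage markers were well above background on all 23 arrays.

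The stretches of 250 bases before the annotated starts of Jag1, Dll1, Rbpj and Notch2 are shown first, from RefSeq on build GRCm38.p6. Such stretches were available for 6 of the 8 genes, in 8 windows, and not for Hes1 and Hey1. Capitals mark a match to the NF-κB consensus, the binding motif of the main transcription factor family activated by LPS. Jag1 is shown because it and Dll1 rose the most, Dll1 with its 2 windows for 2 annotated starts, and Rbpj for its rise on both probes. Notch2 was picked for its match and not for its LPS result. The windows of Notch1 and Dll4 and the second of Rbpj are not printed.
Jag1 (chr2:137116521-137116770, minus strand): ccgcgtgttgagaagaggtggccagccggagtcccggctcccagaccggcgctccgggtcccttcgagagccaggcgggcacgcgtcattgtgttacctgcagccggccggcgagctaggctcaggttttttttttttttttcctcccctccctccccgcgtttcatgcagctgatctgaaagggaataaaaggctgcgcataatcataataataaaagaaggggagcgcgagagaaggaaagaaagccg
Dll1, first window (chr17:15375824-15376073, minus strand): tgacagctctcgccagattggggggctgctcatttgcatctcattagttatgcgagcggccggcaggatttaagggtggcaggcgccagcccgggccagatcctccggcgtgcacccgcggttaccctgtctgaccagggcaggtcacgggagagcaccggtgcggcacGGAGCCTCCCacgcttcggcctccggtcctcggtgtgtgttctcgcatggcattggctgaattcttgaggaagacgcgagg
Dll1, second window (chr17:15376933-15377182, minus strand): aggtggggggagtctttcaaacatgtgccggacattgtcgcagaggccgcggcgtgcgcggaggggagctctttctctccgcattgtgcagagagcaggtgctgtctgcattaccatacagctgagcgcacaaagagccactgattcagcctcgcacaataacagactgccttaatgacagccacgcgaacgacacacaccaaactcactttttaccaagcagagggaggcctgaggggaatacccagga
Rbpj (chr5:53590096-53590345, plus strand): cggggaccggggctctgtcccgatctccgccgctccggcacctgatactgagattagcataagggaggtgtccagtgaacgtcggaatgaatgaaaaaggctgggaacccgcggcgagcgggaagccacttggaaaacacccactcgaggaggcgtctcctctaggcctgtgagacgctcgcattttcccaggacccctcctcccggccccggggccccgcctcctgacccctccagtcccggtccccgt
Notch2 (chr3:98013288-98013537, plus strand): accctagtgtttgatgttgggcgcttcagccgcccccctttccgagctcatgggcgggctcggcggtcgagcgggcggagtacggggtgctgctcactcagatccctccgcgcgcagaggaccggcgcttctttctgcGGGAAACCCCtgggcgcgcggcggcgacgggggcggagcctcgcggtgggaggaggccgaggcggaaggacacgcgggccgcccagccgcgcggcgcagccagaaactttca

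A motif match is a description of the letters only. On both strands, the NF-κB consensus was found in 3 of the 8 windows, those of Notch2, Dll1 (the first) and Dll4, compared with 7.25% of the 32851 promoter windows of all genes. The first Dll1 window lies inside the annotated gene, whereas the second, before its outermost start, held no NF-κB match. Both Rbpj windows also lie inside the annotated gene. The RBPJ core TGGGAA was found in 2 of the 8 windows, both of Rbpj and overlapping each other, compared with 21.6% of all windows. The AP-1 motif TGANTCA was found in 1 window, the second of Dll1, compared with 6.75% of all windows. The Jag1 window held none of these 3 motifs.

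**Figure D1:**
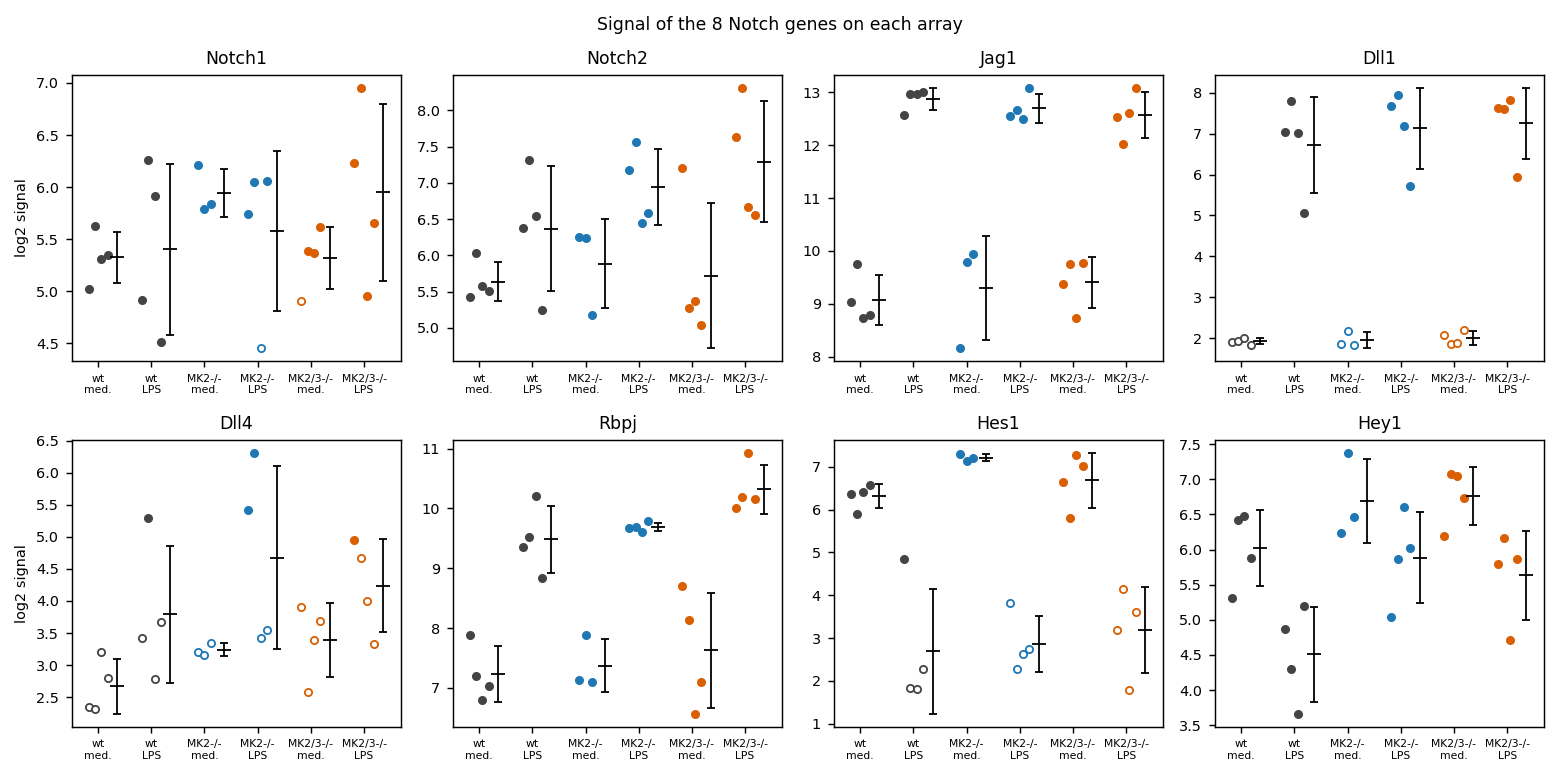
Log2 signal of each of the 8 genes (y axis, a separate scale for each gene) on every array of the 6 groups (x axis). Points are arrays, open points were not well above background, and the bars give the mean and SD of each group. Dll1 lay between 1.82 and 2.20 on all medium arrays and between 5.05 and 7.94 on all LPS arrays.

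Among the ligands, Jag1, on chromosome 2 (chr2:137081451-137116520), encodes a membrane-bound ligand of the Jagged family. Its signals on the 4 wt arrays in medium were 9.03, 9.75, 8.73 and 8.80, and those after LPS were 12.56, 12.96, 12.96 and 13.00. BMDM without MK2 had 8.16, 9.78 and 9.95 in medium and 12.54, 12.67, 12.48 and 13.09 after LPS. In MK2/3-/- BMDM they were 9.37, 9.75, 8.73 and 9.77 and 12.53, 12.02, 12.61 and 13.08. Every LPS array lay above every medium array in each genotype. The difference was 3.80 ± 0.34 (SE) in wt (13.9-fold, adjusted p = 1.25e-07), 3.39 in MK2-/- (10.5-fold, adjusted p = 1.35e-06) and 3.15 in MK2/3-/- BMDM (8.91-fold, adjusted p = 9.19e-07). The exact permutation p, over splits that ignore which arrays share a culture, was 0.0286 in each. That is the smallest that these group sizes allow. Within the 11 cultures the rise ranged from 2.27 to 4.38 with a median of 3.30. The response of MK2/3-/- BMDM minus that of wt BMDM was -0.64 with a 95% confidence interval from -1.65 to 0.37, and that of MK2-/- minus wt was -0.40 (interval from -1.46 to 0.66), so that neither differed beyond its error.

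Dll1, a Delta-like ligand on chromosome 17 (chr17:15367354-15376932), went from below detection to detection. None of the 11 medium arrays was well above background, with wt signals of 1.91, 1.93, 2.01 and 1.84, and all 12 LPS arrays were. After LPS the wt arrays read 7.05, 7.80, 7.02 and 5.05, the MK2-/- arrays 7.67, 7.94, 7.18 and 5.72 and the MK2/3-/- arrays 7.63, 7.60, 7.83 and 5.95. The fourth LPS array was the lowest of its group in all 3 genotypes. As no medium signal was well above background, each was raised to that of the dimmest probe with that mark on its array. The rise was then 9.83-fold in wt, 11.9-fold in MK2-/- and 13.3-fold in MK2/3-/- BMDM. These folds are approximate and no strict lower limits, as probes without the mark can read above that level. On MK2/3-/- medium replicate 1 Notch1 read 4.90 without the mark, where that level was 4.07. The adjusted p was 1.02e-06, 1.01e-06 and 2.15e-07, and the exact permutation p was 0.0286 in each genotype. After LPS, MK2-/- minus wt was 0.40 (interval from -0.67 to 1.46) and MK2/3-/- minus wt was 0.52 (-0.54 to 1.59), within the spread of the arrays.

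Dll4, another Delta-like ligand and best known from endothelium (chr2:119325784-119335666), stayed near background. It was not well above background on any medium array and, of the 4 LPS arrays of a genotype, was so on 1 for wt BMDM, 2 for MK2-/- BMDM and 1 for MK2/3-/- BMDM. The wt signals were 2.35, 2.32, 3.21 and 2.80 in medium and 3.42, 5.29, 2.78 and 3.66 after LPS. In MK2-/- BMDM they were 3.21, 3.16 and 3.35 and 5.42, 6.31, 3.42 and 3.55, and in MK2/3-/- BMDM 3.90, 2.59, 3.39 and 3.69 and 4.96, 4.66, 3.99 and 3.33. The 2 groups overlapped in wt and MK2/3-/- BMDM but not in MK2-/- BMDM, where the LPS arrays started at 3.42 and the medium arrays ended at 3.35. Neither of these signals was well above background, and the exact permutation p in MK2-/- BMDM was 0.171. No comparison passed, with adjusted p-values of 0.234, 0.134 and 0.335 for LPS in wt, MK2-/- and MK2/3-/- BMDM. No fold is given, as most signals of both treatments were not well above background. The Dll4 signal was higher after LPS in 9 of the 11 cultures and lower in 2.

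Of the receptors, Notch2 (chr3:98013538-98150367) was measured by 2 probes, of which the gene table uses the one with the larger LPS induction in wt BMDM, so that its wt LPS value is partly fixed by that choice. The same holds for Notch1 and Rbpj. On this probe the wt signals were 5.42, 6.03, 5.58 and 5.52 in medium and 6.37, 7.32, 6.54 and 5.24 after LPS. In MK2-/- BMDM they were 6.25, 6.24 and 5.17 and 7.18, 7.57, 6.45 and 6.58, and in MK2/3-/- BMDM 7.21, 5.27, 5.37 and 5.04 and 7.63, 8.32, 6.66 and 6.56. The first medium array of MK2/3-/- BMDM stood apart at 7.21, above 2 of the 4 LPS arrays of that genotype.

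The Notch2 difference with LPS was 0.74 in wt (adjusted p = 0.394), 1.06 (adjusted p = 0.206) without MK2 and 1.57 without both kinases (2.97-fold, adjusted p = 0.0248), and the exact permutation p was 0.143, 0.0571 and 0.0857. The responses were not shown to differ, as MK2/3-/- minus wt was 0.84 with an interval from -0.64 to 2.31. On the other probe the differences were 0.26, 0.74 and 0.58 (adjusted p = 0.680, 0.121 and 0.163), which passed in no genotype. The call in MK2/3-/- BMDM was also lost when medium replicate 2, 3 or 4 or LPS replicate 1 or 2 of that genotype was left out in turn, with 1.23 (adjusted p = 0.101) without LPS replicate 2 as the lowest value, and it was kept with the cultures as a block (adjusted p = 0.00743). Both probes were higher after LPS in 10 of 11 cultures, the fourth wt culture being the exception with -0.27 and -0.57. Over the 23 arrays the probes correlated with r = 0.866, and with r = 0.811 after the group means were removed.

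For Notch1 (chr2:26457902-26503822) the probes went different ways. On the probe of the gene table the wt arrays read 5.02, 5.63, 5.31 and 5.35 in medium and 4.92, 6.26, 5.91 and 4.51 after LPS. The MK2-/- arrays read 6.21, 5.79 and 5.84 and 5.75, 6.05, 4.45 and 6.06, and the MK2/3-/- arrays 4.90, 5.39, 5.37 and 5.61 and 6.23, 6.96, 4.95 and 5.66. The groups overlapped in each genotype, and the differences of 0.08, -0.37 and 0.63 had adjusted p-values of 0.961, 0.682 and 0.317. On the other probe the wt arrays read 8.92, 10.61, 8.63 and 9.21 in medium and 8.25, 9.60, 6.96 and 7.83 after LPS. Its differences were -1.18, -0.49 and -0.87 (adjusted p = 0.237, 0.730 and 0.342), and it was lower after LPS in 11 of 11 cultures, by a median of -0.69 (range -1.71 to -0.12). With the cultures as a block the wt difference on this probe had an unadjusted p of 0.0268 in limma and an adjusted p of 0.118, so that this direction was shared by all cultures without passing the adjustment. The probes of Notch1 hardly followed each other over the 23 arrays (r = 0.036).

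**Figure D2:**
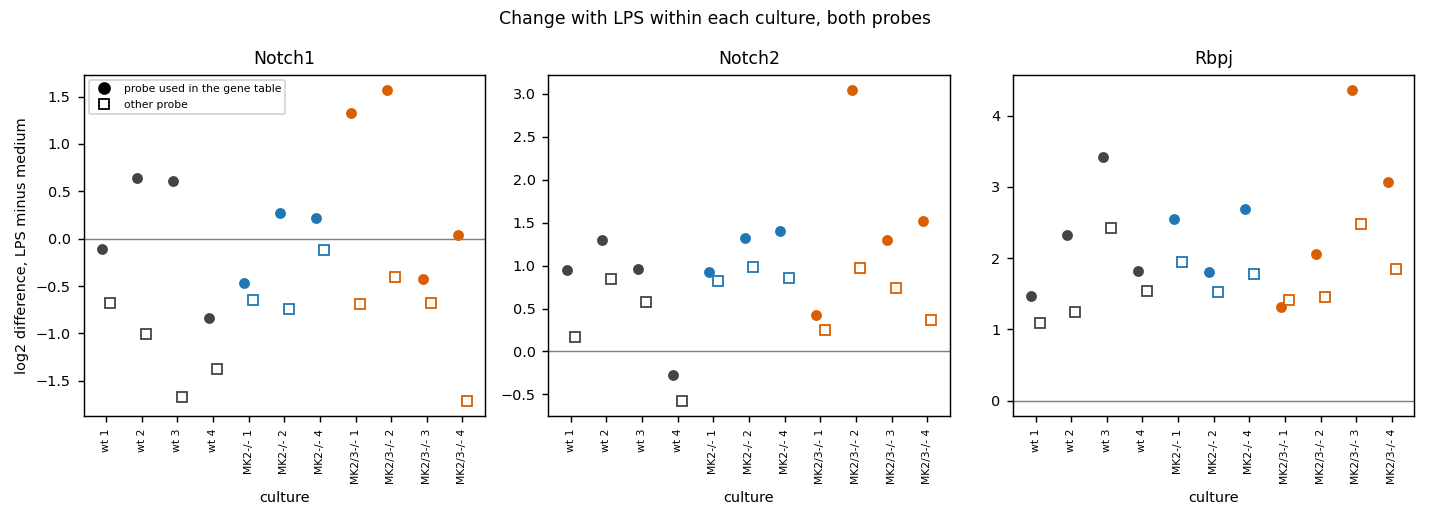
Log2 difference, LPS minus medium (y axis), within each of the 11 cultures (x axis) for the genes with 2 probes, with filled circles for the probe of the gene table and open squares for the other probe. The open squares of Notch1 lie below 0 in all 11 cultures, whereas both probes of Rbpj lie above 0 in all of them.

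Rbpj (chr5:53555779-53657445) encodes the DNA-binding protein through which the cut receptors act on their target genes, and which represses the same genes in their absence. Its wt signals were 7.89, 7.20, 6.79 and 7.03 in medium and 9.35, 9.53, 10.20 and 8.84 after LPS. For MK2-/- BMDM they were 7.13, 7.88 and 7.11 and 9.68, 9.69, 9.61 and 9.79, and in MK2/3-/- BMDM 8.70, 8.14, 6.57 and 7.10 and 10.01, 10.19, 10.93 and 10.16. The medium and LPS arrays did not overlap in any genotype. The difference was 2.26 ± 0.38 (SE) in wt (4.78-fold, adjusted p = 0.000252), 2.32 in MK2-/- (5.00-fold, adjusted p = 0.000381) and 2.70 in MK2/3-/- BMDM (6.49-fold, adjusted p = 2.38e-05). The other probe gave smaller differences of 1.57, 1.72 and 1.80, which passed as well (adjusted p = 0.000130, 0.000108 and 1.92e-05). Rbpj was higher after LPS in 11 of 11 cultures on both probes.

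After LPS, Rbpj was 0.84 higher in MK2/3-/- than in wt BMDM by limma without passing the adjustment (unadjusted p = 0.0406, adjusted p = 0.340, exact permutation p = 0.114). Its MK2/3-/- LPS arrays, which started at 10.01, lay above all MK2-/- LPS arrays, which ended at 9.79. That was 1 of the 8 genes whose arrays did not overlap in this comparison, beside 5.14% of all genes, and the difference of 0.63 had an adjusted p of 0.730 and an exact permutation p of 0.0286. On the other probe MK2/3-/- minus MK2-/- came to 0.13 and MK2/3-/- minus wt to 0.21.

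**Figure D3:**
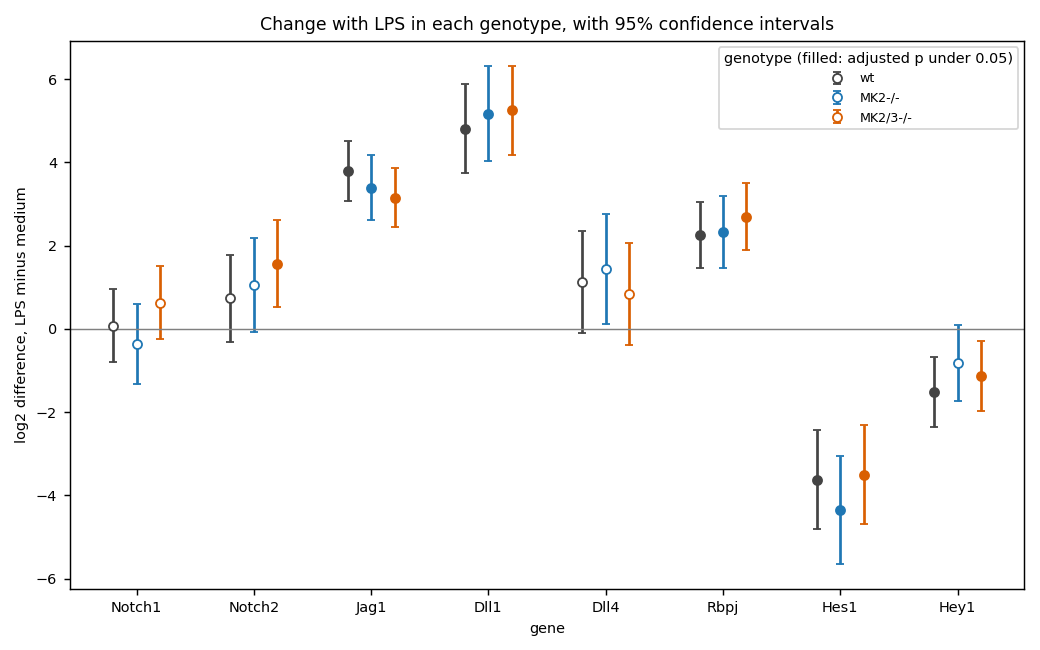
Log2 difference, LPS minus medium (y axis), of the 8 genes (x axis) in the 3 genotypes, with 95% confidence intervals from limma and filled points where the adjusted p was under 0.05. Jag1, Dll1 and Rbpj lie above 0 and Hes1 below 0 in each genotype, and the intervals of the genotypes overlap for each gene. For Dll1, Dll4 and Hes1 the fitted values rest partly on signals below background.

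The target genes went the other way. Hes1 (chr16:30065357-30067796), a repressor that is the best known direct target of Notch signalling, read 6.36, 5.90, 6.42 and 6.58 on the wt medium arrays and 4.85, 1.83, 1.80 and 2.29 after LPS. The MK2-/- arrays read 7.29, 7.13 and 7.21 and 3.81, 2.28, 2.63 and 2.74, and in MK2/3-/- BMDM 6.65, 5.80, 7.27 and 7.01 and 3.18, 4.14, 1.80 and 3.60. All 11 medium arrays were well above background, compared with 1 of the 12 LPS arrays, the first of wt BMDM. The wt difference was -3.62 ± 0.57 (SE; adjusted p = 0.000119), with 1 of its 4 LPS arrays measured above background. In MK2-/- and MK2/3-/- BMDM, where no LPS array was, the LPS signals were raised in the way described for Dll1. The fall was then 7.86-fold (adjusted p = 3.44e-05) and 5.67-fold (adjusted p = 0.000111), again as approximate values and no strict limits. The exact permutation p was 0.0286 in each genotype. The Hes1 signal was lower after LPS in 11 of 11 cultures. The first wt culture, with both arrays above background, had a difference of -1.51, and for the other 10 the LPS level is only a bound. As these are bulk samples, fewer cells that express a gene and less RNA per cell cannot be told apart.

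In medium, the 3 MK2-/- arrays of Hes1 lay above all 4 wt arrays, with a difference of 0.90 (interval from -0.40 to 2.19, adjusted p = 1, exact permutation p = 0.0286). Notch1 on the probe of the gene table did not overlap between these groups either (0.62, exact permutation p = 0.0571), which makes 2 of the 8 genes, beside 7.02% of all genes. Between MK2/3-/- and MK2-/- BMDM in medium it was 1 of the 8 genes, Notch1 again (-0.63), beside 6.44% of all genes. On the other probe of Notch1 both differences turned, to -0.96 and 0.18.

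Hey1 (chr3:8663359-8667038), a related repressor and Notch target, was well above background on all 23 arrays. Its wt signals were 5.31, 6.42, 6.48 and 5.88 in medium and 4.88, 4.30, 3.67 and 5.20 after LPS. In MK2-/- BMDM they were 6.23, 7.38 and 6.47 and 5.03, 5.86, 6.60 and 6.02, and in MK2/3-/- BMDM 6.20, 7.08, 7.05 and 6.73 and 5.79, 6.16, 4.71 and 5.86. The medium and LPS arrays did not overlap in wt and MK2/3-/- BMDM and did so in MK2-/- BMDM. Hey1 fell by 1.51 in wt (2.85-fold, adjusted p = 0.0121) and by 1.13 in MK2/3-/- BMDM (2.19-fold, adjusted p = 0.0466), and the difference of -0.81 in MK2-/- BMDM had an adjusted p of 0.236. The interaction was not called, with 0.70 (interval from -0.54 to 1.95) for MK2-/- minus wt. Within cultures Hey1 was lower after LPS in 11 of 11, by between -2.81 and -0.40. The call in MK2/3-/- BMDM lay close to the threshold, and without LPS replicate 3 of that genotype the difference was -0.83 (adjusted p = 0.166). The wt call was lost without wt LPS replicate 3 (-1.23, adjusted p = 0.0531).

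After LPS, Hey1 was 1.37 higher in MK2-/- than in wt BMDM (interval from 0.53 to 2.22, unadjusted p = 0.00304 and adjusted p = 0.429 by limma, exact permutation p = 0.0571). In MK2/3-/- BMDM it was 1.12 higher than in wt BMDM (interval from 0.28 to 1.97, unadjusted p = 0.0120 and adjusted p = 0.201 by limma, exact permutation p = 0.0857). Neither passed, and the lowest arrays of both knockouts, 5.03 and 4.71, lay within the wt range, which ended at 5.20. In medium the differences from wt BMDM were 0.67 and 0.74, with an adjusted p of 1 for both.

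Across the genotype comparisons, limma called 0 of the 8 genes. After LPS the share of all genes called was 0.0308% for MK2-/- compared with wt, 1.64% for MK2/3-/- compared with wt and 0.161% for MK2/3-/- compared with MK2-/-, and in medium it was 0.00769%, 0.0769% and 0.0461%. For the difference of the LPS response between genotypes it was 0.00384%, 0.0115% and 0%. At an unadjusted p under 0.05 the counts after LPS were 1 of 8 (Hey1), 2 of 8 (Hey1 and Rbpj) and 0 of 8, beside 7.50%, 13.6% and 7.91% of all genes, and they were 0 in medium and for the interactions. After adjustment, the methods' t-test also called 0 of the 8 genes between genotypes in medium and after LPS.

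Of 61 other genes of the Notch pathway, 59 were measured. In wt BMDM 8 of them were called higher and 7 lower after LPS, in MK2-/- 5 and 7 and in MK2/3-/- 14 and 7. Over all genes the shares called higher and lower were 8.26% and 8.89% in wt, 8.48% and 10.1% in MK2-/-, and 11.9% and 12.9% in MK2/3-/- BMDM. Limma called none of the 59 genes between genotypes or for an interaction. At an unadjusted p under 0.05, between 1 and 9 of the 59 genes passed in each of these comparisons, with the 9 for MK2/3-/- minus wt after LPS, where 13.6% of all genes passed. The medians over the 59 genes were -0.03, -0.04 and -0.04. Those called in wt BMDM with a change of at least 1 are given by role.

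Among the genes that process receptors, Adam17, the protease that sheds many membrane proteins and can cut Notch, rose from 7.85 ± 0.71 to 9.01 ± 0.46 (SD, n = 4) in wt BMDM (1.16, adjusted p = 0.00486). It was called in MK2-/- (1.05) and MK2/3-/- BMDM (0.89) as well. Lfng, the fringe glycosyltransferase that alters which ligands a receptor responds to, fell by 1.82 in wt (adjusted p = 0.00124), 2.19 in MK2-/- and 1.92 in MK2/3-/- BMDM. Within the glycosylation genes Poglut1, which adds glucose to the receptor, was called higher in all 3 genotypes with 0.73, 1.53 and 1.61.

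Of the Deltex family, ubiquitin ligases of which some act on Notch, Dtx3l rose by 2.20 in wt BMDM (adjusted p = 0.000645) and Dtx4 fell by 1.42 (adjusted p = 0.00414). Both were called in the same direction in the knockouts, with 2.43 and 2.64 for Dtx3l and -1.24 and -1.15 for Dtx4. Among the Groucho-type co-repressors that Hes proteins recruit, Tle1 fell by 1.36 (adjusted p = 0.00114) and Tle3 rose by 1.28 in wt BMDM (adjusted p = 0.0409), again with the same calls in both knockouts.

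The Hes and Hey family did not move as a block, with 2 of its 7 other measured members called higher and 1 lower in wt BMDM. Hes2 rose from 7.18 ± 0.36 to 8.63 ± 0.43 (1.45, adjusted p = 0.00106) and Hes6, which counteracts Hes1 in other tissues, fell from 11.58 ± 0.19 to 10.10 ± 0.49 (-1.48, adjusted p = 0.000449). Without MK2 the differences were 1.55 and -1.59, and in MK2/3-/- BMDM 1.26 and -1.78, all of which were called. The receptors Notch3 and Notch4 and the ligands Jag2 and Dll3 were called in no genotype. Hey2 was not well above background on any of the 23 arrays.

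**Figure D4:**
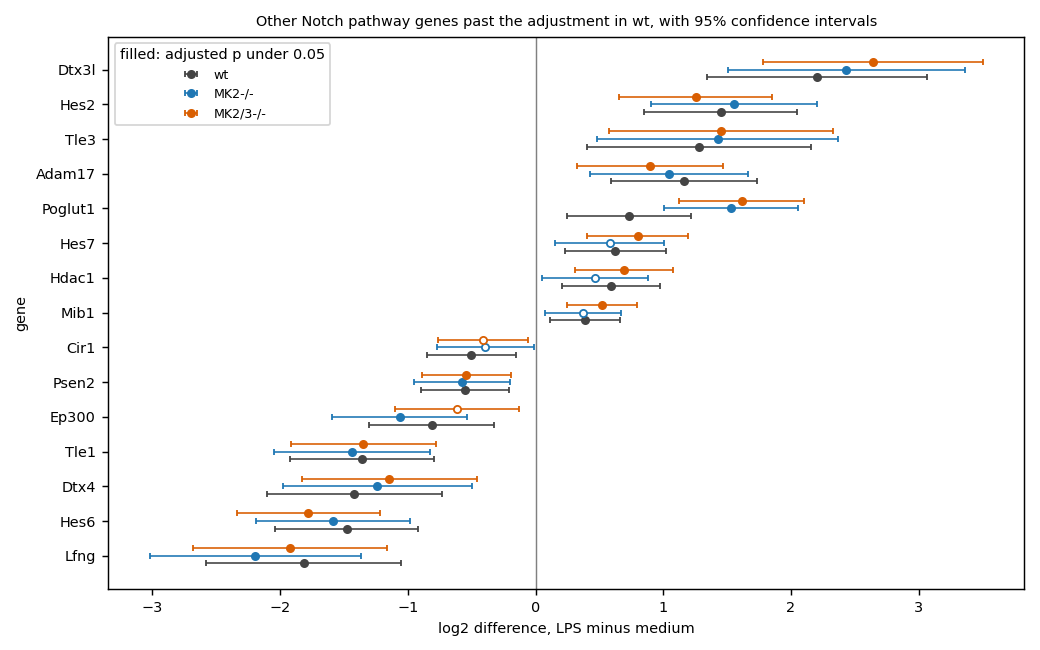
Log2 difference, LPS minus medium (x axis), of the 15 other Notch pathway genes called in wt BMDM (y axis, ordered by the wt value), with 95% confidence intervals from limma for the 3 genotypes and filled points where the adjusted p was under 0.05. Values run from -1.82 for Lfng to 2.20 for Dtx3l in wt BMDM.

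The genes whose signal was most like that of each gene over the 23 arrays were searched among 15694 genes well above background on every array of at least 1 group. All arrays share the LPS contrast, so the correlations are descriptions. For Jag1 they were Tnf (r = 0.985, and 0.733 after removal of the group means), Prag1 and Ch25h. For Dll1 they were the TNF family member Tnfsf15 (r = 0.995, and 0.938 without the group means), Kpna3 (0.991) and the cytokine gene Il27 (0.990).

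For Notch2 they were the interferon-induced gene Oasl2 (r = 0.951, and 0.912 without the group means), Trim30d (0.932) and Gzmk (0.925), so that Notch2 followed these genes between replicate arrays nearly as closely as over all arrays. For Rbpj they were Spred1 (0.957), Cited2 (0.956) and Gm4907 (0.955), for Hes1 an unnamed GenBank sequence (0.958), Cbx8 (0.953) and Mepce (0.951), and for Hey1 Ing2 (0.814), Gin1 (0.803) and Mcrip1 (0.793). For Notch1 on the probe of the gene table they were Ap3b1 (r = 0.852), an unnamed RefSeq transcript (0.796) and Stat5b (0.757). The other Notch1 probe, which hardly followed this one (r = 0.036), was not searched. The Hey1 and Notch1 values were the lowest of the first-ranked ones.

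Cultures of a genotype differed in their content of stromal transcripts such as Col1a1, and Notch2 moved against them. All 5 stromal markers were measured, 2 of them well above background on all 23 arrays, and their mean log2 signal ranged from 6.90 to 11.27 on wt medium arrays and 6.88 to 11.43 on wt LPS arrays. The ranges were 5.53 to 9.37 and 5.76 to 9.31 in MK2-/- and 4.74 to 10.21 and 5.42 to 10.17 in MK2/3-/- BMDM, so that each genotype spanned a similar range in medium and after LPS. Across the 23 arrays the list correlated with Notch2 with r = -0.563 (-0.753 without the group means) on the probe of the gene table and -0.584 (-0.658) on the other probe. The MK2/3-/- medium array with the highest Notch2 signal, 7.21, had the lowest stromal mean, 4.74. Arrays of a culture share their cells, so the 23 points are not independent, and the part of these cells in the Notch2 values was not tested.

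The endothelial list correlated with Notch2 in the opposite direction (r = 0.804 and 0.736 for the 2 probes, and 0.755 and 0.666 without the group means). Other genes also correlated with both lists once the group means were removed, positively with the endothelial and negatively with the stromal list. Against the endothelial list r was 0.612 for Dll1, 0.609 for Dll4 and 0.676 for the other Notch1 probe, and against the stromal list it was -0.443, -0.470 and -0.598. The part of these cells in the values of Dll1, Dll4 and Notch1 was not tested either. The endothelial mean ranged from 4.46 to 5.69 on medium and from 4.82 to 6.15 on LPS arrays, and it was carried by Kdr and Vwf, whereas the endothelial receptor genes Tek and Tie1 were well above background on 1 array each. The remaining gene, Cdh5, was well above background on 2 medium and 3 LPS arrays of wt BMDM. In MK2/3-/- BMDM it was so on 3 medium arrays and 1 LPS array, and in MK2-/- BMDM on none. Of the lists that moved with LPS, as Jag1, Dll1, Rbpj and Hes1 did, the dendritic list had means of 4.88 to 5.98 in medium and 6.00 to 7.91 after LPS. All 3 of its genes were measured and 1 was above background on all arrays, and the rise was carried by Zbtb46 (4.64 to 10.14 in wt BMDM). The dendritic list also correlated with Notch2 (r = 0.756 and 0.669 for the 2 probes, and 0.584 and 0.519 without the group means). Without the group means r was 0.543 for Dll4, 0.610 for the other Notch1 probe and 0.221 for Dll1. The mast cell list went from a range of 1.74 to 2.58 to one of 2.30 to 4.20, carried by Kit (2.03 to 4.50 in wt BMDM). The part of either list in the changes of the 8 genes was not tested. The B cell list ranged from 2.93 to 4.56 in medium and from 2.60 to 4.33 after LPS, with 1 of its 3 measured genes above background on no array. The T cell list ranged from 4.65 to 5.33 and from 4.79 to 5.35, and for it this held for 2 of 3. Its remaining gene, Cd3e, was well above background on all arrays (10.04 in wt BMDM in medium). The neutrophil and progenitor list ranged from 5.71 to 8.32 in medium and from 6.36 to 8.72 after LPS. Of its 4 measured genes, 2, Elane and Camp, were well above background on all arrays (Elane 11.6 in wt BMDM in medium). Correlations without the group means were not particular to the stromal, endothelial and dendritic lists. The neutrophil and progenitor list had r = 0.507 and 0.467 with the 2 Notch1 probes and 0.451 with Dll4. For the B cell list r was 0.528 with Dll4. The macrophage list had 0.563 with Notch1 on the probe of the gene table and 0.057 on the other probe.

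**Figure D5:**
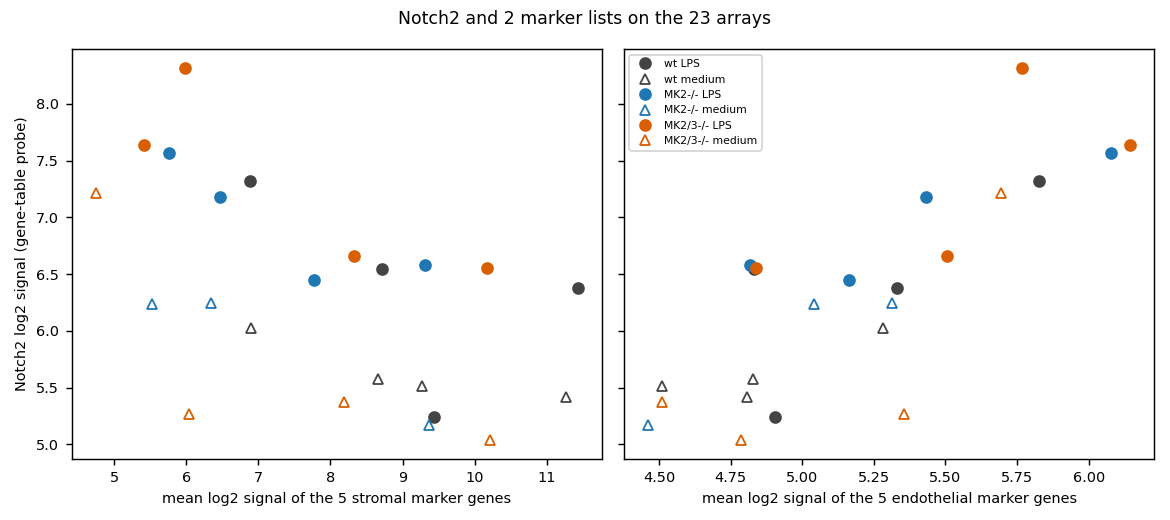
Log2 signal of Notch2 on the probe of the gene table (y axis) against the mean log2 signal of the 5 stromal and the 5 endothelial marker genes (x axes) on the 23 arrays, with filled circles for LPS, open triangles for medium and colours for genotypes. Notch2 decreases with the stromal mean and increases with the endothelial mean, with r = -0.563 and 0.804.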

How the data were processed

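The 23 arrays were read with the Feature Extraction software 11.0.1.1. Per the file headers the deposited spot intensity is on a linear scale after subtraction of background and a correction for gradients (without a fit on 2 arrays), and was not normalized between arrays. The table of log2 values deposited by the authors, quantile normalized and centred on the median of each probe, served as an alternative, and intensities treated in the same way correlated with it with r = 0.9998. Of 62976 spots per array, 59305 were no controls. Non-uniform spots and population outliers, as marked by the software, were set to missing. Intensities were then log2 transformed, averaged per probe and quantile normalized, using limma 3.58.1 and data.table (version 1.17.8) under R 4.3.3. Plots were made with matplotlib 3.10.9 under Python 3.11.15.

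Probes without a RefSeq or GenBank accession were left out, and 27509 probes of 20887 genes were named through a table of assembly GRCm38.p6. Where a gene had several probes, that with the strongest induction by LPS in wt cells represented it, following the study's methods, which gave 26014 genes. A probe counted as well above background on an array when the scanner software's mark was carried by no fewer of its spots than lacked it. No spot was saturated. The number of arrays limits the precision.

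All arrays entered a limma model with 6 group means (lmFit, eBayes). P-values were two-sided, and the adjustment of Benjamini and Hochberg covered the 26014 genes. Exact permutation tests of the difference of means were two-sided, with 0.0286 as the smallest possible p. They ran over all splits of the arrays of the 2 groups. For LPS against medium they therefore ignored the pairing of arrays by culture described below. The fits were tested on simulated arrays. Replicate numbers and mouse ages in the labels pair medium and LPS arrays of 11 cultures, the third MK2-/- medium array with the fourth LPS array. Deviations from the group means correlated above 0.1 in 10 of these 11 pairs over 25902 genes (0.066 to 0.566, median 0.256) and in 11 of 11 over the 12570 genes above background on all arrays, beside medians of -0.08 and -0.193 for 33 pairs of different cultures. A fit with cultures as a block (duplicateCorrelation) was therefore run as well. Other alternatives were 75th percentile scaling, normexp background correction (offset 50), a floor of 5, the mean over probes, the brightest probe, a filter on dim probes, the compared groups alone, the methods' t-test, and leaving out each array in turn.

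The 8 genes and the pathway and marker lists were chosen with earlier results of these data known. Besides the 8 genes, the text names Mapkapk2 and Mapkapk3, other Notch pathway genes called for LPS in wt BMDM with a log2 change of at least 1 in size or called in a genotype comparison, and the 3 genes most correlated with each of the 8 that was well above background throughout a group. Poglut1, Notch3, Notch4, Jag2, Dll3, Hey2 and the marker genes were named after their values were seen.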

Additional observations from a re-analysis of the deposited data

Results flagged for a closer look

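In 4 of 40 groups of 4 arrays, 1 array stood apart from the other 3, and chance marks about 1 in 20 groups this way. Notch2 in MK2/3-/- BMDM in medium had a signal of 7.21 on replicate 1, compared with 5.04 to 5.37 on the others. Jag1 in LPS-treated wt BMDM was 12.56 on replicate 1 and 12.96 to 13.00 on the others, a gap that is small beside the change with LPS. Dll1 in LPS-treated MK2/3-/- BMDM was 5.95 on replicate 4, compared with 7.60 to 7.83. Hes1 in LPS-treated wt BMDM was 4.85 on replicate 1, compared with 1.80 to 2.29, and the others were not well above background.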

How the results depend on the processing

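The number of the 8 genes called stayed within 1.5 times its value in every comparison and under every alternative run. Leaving out single arrays aside, 308 results kept their direction and side of the threshold, 10 lost their call and 15 reversed. The reversals all concern Notch1, which was called nowhere. With the mean over all probes its LPS difference was -0.554 in wt and -0.12 in MK2/3-/- BMDM, and MK2-/- minus wt in medium was -0.171. With the brightest probe, and with the other probe (an alternative chosen after seeing the data), LPS gave -1.183 in wt and -0.871 in MK2/3-/-, MK2-/- minus wt in medium -0.962 and MK2/3-/- minus MK2-/- in medium 0.177. With the other probe and the cultures as a replicate block, also chosen after seeing the data, these were -1.183, -0.871, -0.96 and 0.174. Leaving out 1 array in turn, the Notch1 LPS difference ranged from -0.211 to 0.371 in wt and from -0.529 to 0.007 in MK2-/- BMDM. Of the lost calls, Notch2 in MK2/3-/- BMDM had an adjusted p of 0.0504 with 75th percentile scaling, 0.144 with the brightest probe and 0.163 with the other (0.0946 with the block), 0.114 with the compared groups alone and 0.167 by the methods' t-test. Hey1 in MK2/3-/- BMDM had 0.0504 with a floor of 5, 0.0612 with the compared groups alone and 0.097 by the methods' t-test, and it lost its call without any of 14 single arrays. Hey1 in wt BMDM had 0.0815 by that test. With the cultures as a block on the probes of the gene table (paired fit, correlation 0.241), no call of the 8 genes changed, and Hey1 in MK2/3-/- BMDM had an adjusted p of 0.025. The methods' t-test has no form for the interactions and was not run there. With 75th percentile scaling the median difference of all genes was 0.15, 0.197 and 0.063 for LPS in wt, MK2-/- and MK2/3-/- BMDM, compared with 0.005, -0.011 and -0.024 after quantile normalization, and at most 0.182 between genotypes (MK2/3-/- minus wt in medium, compared with 0.027). Differences under that scaling are to be read relative to these medians. Dll1, Dll4 and Hes1 are limited by signals near background.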
